A study of Mus musculus with 12 samples.

Results

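Copy number at 9 genes named for renal tumour suppression was read in 12 mouse tumours by array comparative genomic hybridisation, in which tumour DNA and reference DNA compete for the same probes. The genes were Arid1a, Pbrm1 and Setd2, which act on chromatin, Mtor, Tsc1, Tsc2 and Flcn of the mTOR pathway, and Sdhb and Fh1 of the Krebs cycle. They were chosen by name, with earlier results of these data known. All 9 were on the array, with 57 probes between them, of 20294 autosomal genes named there. Arid1a, Sdhb and Mtor lie on chromosome 4, and the other 6 each lie on a different chromosome. The set consisted of 4 renal cell carcinomas and 8 malignant lymphomas, all from C57BL/6 mice, some lacking Mutyh, a repair enzyme that cuts out adenine where it has paired with oxidised guanine. Treated mice were males that received the iron chelate ferric nitrilotriacetate (Fe-NTA) into the abdomen 5 times a week for 12 weeks, at 3 mg iron per kg in week 1 and 5 mg per kg thereafter. The labels put the killing of the mice at about 120 weeks, and give no sex for the untreated ones. All 4 carcinomas came from treated mice, of which 3 were Mutyh knockouts (KO1080, KO1097 and KO1134) and 1 was wild type (WT1179). The lymphomas of treated mice came from 2 knockouts (KO1077 and KO1111) and 3 wild types (WT1113, WT1114 and WT1121). Those of untreated mice came from 1 knockout (KO1414) and 2 wild types (WT1405 and WT1420). Every tumour was hybridised in red against 1 common reference, normal kidney DNA of C57BL/6 mice, in green, so a negative log2 ratio means less DNA in the tumour.

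ARID1A and PBRM1 are subunits of SWI/SNF complexes, which move nucleosomes with energy from ATP, and SETD2 is the methyltransferase that trimethylates lysine 36 of histone H3 in transcribed genes. In human clear cell renal carcinoma the genes for PBRM1 and SETD2 sit on the same chromosome arm and are often lost together; in the mouse they lie on separate chromosomes. TSC1 and TSC2 form the complex that switches off RHEB, the activator of the mTOR kinase, and FLCN acts on the RAG proteins that bring that kinase to the lysosome. SDHB is the iron-sulphur subunit of succinate dehydrogenase and FH1 is fumarate hydratase, and inherited loss of either, like that of TSC1, TSC2 or FLCN, predisposes people to renal tumours. Mtor encodes the kinase itself and is not a tumour suppressor, so the name of the group does not describe it.

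The array read each gene through DNA probes of about 60 bases, spread over the gene. The following sequences are those with the greatest and the least difference between carcinomas and lymphomas in Arid1a and Mtor, both probes of Sdhb, the Pbrm1 probe at which the tumour types did not overlap, the Setd2 probe that was lowest in KO1134, and the Fh1 probe that was highest in WT1114. They are given as the array files hold them, with positions in mouse build mm9 and strand not stated in the sources used here. No letters are in capitals because no motif was searched.
Arid1a, chr4:133287125-133287184: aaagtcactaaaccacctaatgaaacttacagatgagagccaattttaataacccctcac
Arid1a, chr4:133260840-133260899: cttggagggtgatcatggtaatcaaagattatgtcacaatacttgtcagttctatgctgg
Mtor, chr4:147898112-147898171: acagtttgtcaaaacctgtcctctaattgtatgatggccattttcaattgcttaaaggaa
Mtor, chr4:147873450-147873509: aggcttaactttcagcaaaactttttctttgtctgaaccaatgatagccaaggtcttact
Sdhb, chr4:140518388-140518447: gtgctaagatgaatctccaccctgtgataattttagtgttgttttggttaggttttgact
Sdhb, chr4:140531887-140531946: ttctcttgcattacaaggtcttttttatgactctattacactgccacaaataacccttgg
Pbrm1, chr14:31894816-31894875: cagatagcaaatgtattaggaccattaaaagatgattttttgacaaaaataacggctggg
Setd2, chr9:110462235-110462294: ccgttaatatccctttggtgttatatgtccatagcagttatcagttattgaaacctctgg
Fh1, chr1:177549419-177549478: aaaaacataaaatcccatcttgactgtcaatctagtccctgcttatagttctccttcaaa
The GC content of the 57 probes lay between 31.7% and 40.0%, and the median autosomal probe had 36.7%. An exon or intron is not given for them, because no annotation of that build was used here.

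The Mutyh probe at chr4:116490496-116490555 read between -3.21 and -2.39 in the 6 knockouts and between -0.75 and 0.14 in the 6 wild types, so no tumour went against its genotype label. The other Mutyh probe, at chr4:116480656-116480715, did not part the genotypes, at -0.58 to 0.26 in knockouts and -0.82 to 0.20 in wild types. The immunoglobulin locus Igh, which lymphocytes cut when they rearrange it, lay between -0.49 and -0.03 relative to its chromosome in lymphomas and between 0.02 and 0.25 in carcinomas. The 12 arrays lay on 3 slides, and slide 1 held the 4 carcinomas and nothing else, so tumour type and slide 1 cannot be told apart. Slide 2 held KO1077, KO1111, WT1113 and WT1114, and slide 3 held WT1121, the only treated lymphoma there, with the 3 untreated ones. The lymphomas WT1113 and WT1114 had the highest correlation between any lymphomas, r = 0.755 over 2397 bins of 1 Mb. Each mouse gave 1 tumour, and p-values measure the spread between these tumours. In bulk tumour DNA, fewer cells with a loss and a smaller loss in each cell cannot be told apart.

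The value of a gene is the mean log2 ratio of its own probes after each array was centred on its autosomal mode, the most frequent ratio. The local value is the mean of the other probes within 500 kb and shares no spot with the gene. Both were compared between tumour types over all autosomal genes with limma, with genotype and treatment in the model and Benjamini-Hochberg adjustment over 20281 gene values or 20293 local values, and called at an adjusted p under 0.05. Of the 9 genes, Arid1a and Mtor were lower in carcinomas by their own probes, and Arid1a, Sdhb and Mtor by their local values. No gene was higher in carcinomas, and none of the 6 genes away from chromosome 4 passed the test on either value. Across all genes, 13.6% passed on gene values, 12.7% lower and 0.873% higher, and 10.4% passed on local values, all of them lower. On chromosome 4, 91.0% of 1383 genes were called lower by their own probes and 98.8% of 1384 by their local values.

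**Figure D1:**
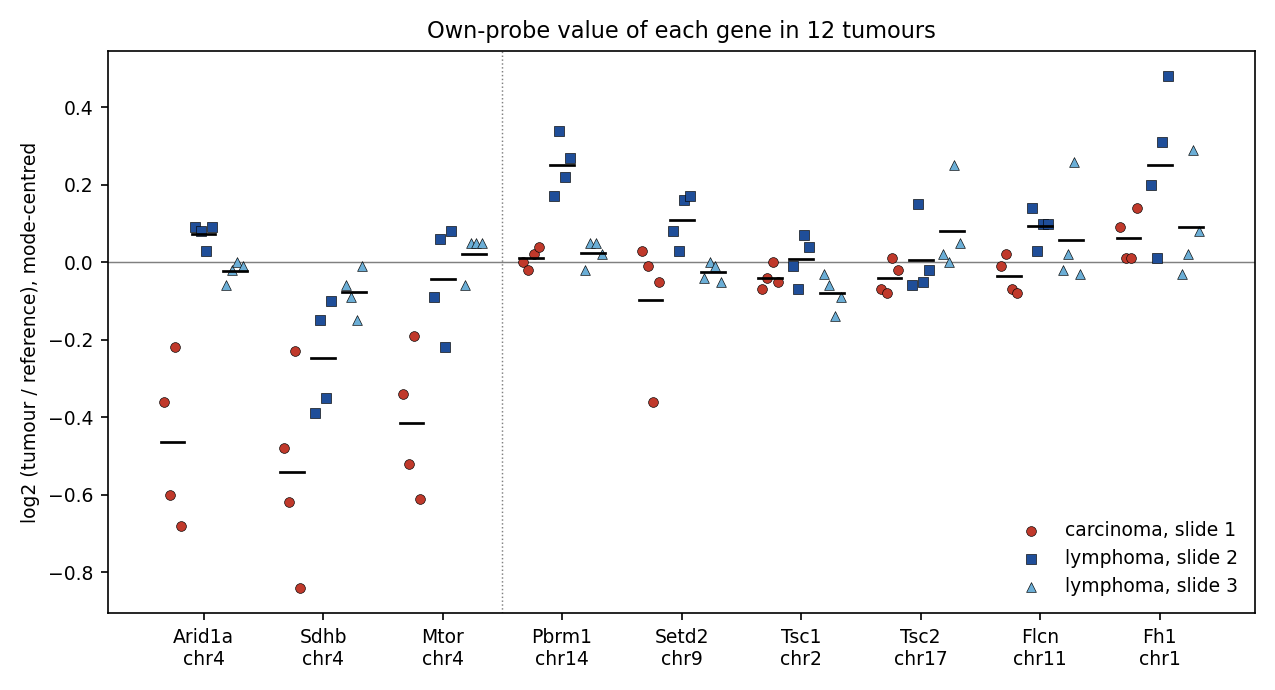
The vertical axis is the mean log2 ratio of each gene's own probes, points are tumours, black bars are means of the points of a slide, and the dotted line parts the chromosome 4 genes from the others. The 4 carcinomas lie between -0.22 and -0.68 at Arid1a, below every lymphoma, and around 0 at most genes to the right, except KO1134 at -0.36 for Setd2.

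Arid1a, the DNA-binding subunit of the BAF form of SWI/SNF, lies at chr4:133238591-133307216 and has 9 probes. Carcinoma KO1080 read -0.36, KO1097 read -0.60, KO1134 read -0.22 and WT1179 read -0.68. The lymphomas read from -0.06 to 0.09, with a median of 0.02. All 4 carcinomas were below all 8 lymphomas, which held for 10.3% of all genes. As a share of the reference signal the carcinomas held 77.7%, 65.8%, 85.6% and 62.5%, in the same order of tumours. The fitted difference was -0.55 ± 0.08 (SE; limma adjusted p = 0.000535), and it stayed under 0.05 in each of 26 alternatives, with a highest adjusted p of 0.00729. The 96 neighbouring probes gave -0.50 ± 0.21 (SD, n = 4) in carcinomas and -0.02 ± 0.03 (SD, n = 8) in lymphomas, a fitted difference of -0.51 ± 0.08 (limma adjusted p = 0.00079).

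Single Arid1a probes followed the gene, and at 8 of 9 of them every carcinoma was below every lymphoma. The share of all probes so separated was not counted, and 91.0% of chromosome 4 genes were called lower. The difference of means ran from -0.69 at the probe starting at 133287125 to -0.18 at the probe starting at 133260840, where the carcinomas read -0.08, -0.13, 0.05 and -0.10. That probe was the exception to the separation. Slide 2 lymphomas, at 0.03 to 0.09, were all above slide 3 lymphomas, at -0.06 to 0.00, and this order held for 11% of all genes. Against either slide the carcinomas were lower without overlap, by 0.54 on average against slide 2 and by 0.45 against slide 3.

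Pbrm1, the polybromo subunit of the PBAF form of SWI/SNF, lies at chr14:31835444-31926168 and has 11 probes. It read 0.00, -0.02, 0.02 and 0.04 in KO1080, KO1097, KO1134 and WT1179, and from -0.02 to 0.34 in the lymphomas, with a median of 0.11. The carcinomas sat within 0.04 of the centre, and the spread was among the lymphomas. Carcinomas minus lymphomas gave a fitted -0.20 ± 0.07 (SE; limma adjusted p = 0.0641), which did not pass. It passed without lymphoma WT1121, at -0.23 (adjusted p = 0.0158), and with slide as a random block (adjusted p = 0.0419), and reached 0.252 at most over 26 alternatives. The block fit used a correlation within slides of -0.035. It cannot separate slide from tumour type, because all carcinomas share a slide that holds no lymphoma.

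The lymphoma values at Pbrm1 divided by slide, with slide 2 above slide 3, as they did at 11% of all genes. The 4 tumours of slide 2 read 0.17 to 0.34 and the 4 of slide 3 read -0.02 to 0.05, and the treated lymphoma on slide 3, WT1121, read 0.05. Carcinomas differed by -0.24 from the slide 2 mean and by -0.02 from the slide 3 mean. At 7 of 11 Pbrm1 probes all slide 2 lymphomas were above all slide 3 lymphomas, against 9.92% of autosomal probes, and at the probe starting at 31878241 they read 0.47 to 0.61 on slide 2 and -0.18 to 0.03 on slide 3. The part of slide in the Pbrm1 difference was not tested. The 100 neighbouring probes read 0.12 ± 0.07 (SD, n = 4) on slide 2 and 0.01 ± 0.04 (SD, n = 4) on slide 3. Pbrm1 minus its neighbours differed between tumour types by -0.10 ± 0.03 (limma adjusted p = 0.0536, between 0.0146 and 0.342 over 28 alternatives). It passed in 4 of them: without lymphoma WT1121 (0.0146), without lymphoma WT1405 (0.0435), with genes of at least 3 probes (0.0369) and with a window of 250 kb (0.0474). Of all genes 14.9% passed this comparison, 3019 in number. The number was 5517 without lymphoma WT1121, 1013 without lymphoma KO1077 and 139 with slide as a random block.

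Setd2, the histone H3 lysine 36 methyltransferase, lies at chr9:110440151-110517813 and has 8 probes. It read 0.03, -0.01 and -0.05 in carcinomas KO1080, KO1097 and WT1179, and -0.36 in KO1134. The lymphomas ran from -0.05 to 0.17, with a median of 0.02. One carcinoma was therefore below every other tumour, while the other 3 overlapped the lymphomas. In KO1134 all 8 Setd2 probes were negative, from -0.65 to -0.15, the local value was -0.24 and the median of chromosome 9 was -0.27. The fitted difference between tumour types was -0.17 ± 0.08 (limma adjusted p = 0.21), between -0.21 and -0.09 over the alternatives, the smallest size being that without KO1134. Slide 2 lymphomas, at 0.03 to 0.17, were all above slide 3 lymphomas, at -0.05 to 0.00, an order that held for 11% of all genes.

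Mtor, the kinase at the centre of the pathway, lies at chr4:147826917-147930002 and has 12 probes. The wild-type carcinoma WT1179 read -0.61 at Mtor, and the knockouts KO1097, KO1080 and KO1134 read -0.52, -0.34 and -0.19. The lymphomas read from -0.22 to 0.08, with a median of 0.05. Lymphoma WT1113, at -0.22, was below carcinoma KO1134, so 3 of the 4 carcinomas were below every lymphoma. Carcinomas held 65.5% to 87.9% of the reference signal and WT1113 held 85.7%. The fitted difference was -0.41 ± 0.10 (SE; limma adjusted p = 0.0103). Without carcinoma WT1179 it was -0.31 (adjusted p = 0.0939), the only one of 26 alternatives in which Mtor did not pass.

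The 85 probes around Mtor gave -0.49 ± 0.20 (SD, n = 4) in carcinomas and -0.08 ± 0.11 (SD, n = 8) in lymphomas, a fitted difference of -0.41 ± 0.10 (limma adjusted p = 0.0143). This local call was lost without carcinoma WT1179 (adjusted p = 0.149) and without lymphoma KO1111 (0.0666). All 12 probes had a lower mean in carcinomas, as did 76.6% of autosomal probes and nearly all probes of chromosome 4. At 4 of the 12 the tumour types did not overlap, and the share of all probes so separated was not counted. The differences of means ran from -0.61 at the probe starting at 147898112 to -0.11 at the probe starting at 147873450. Within a tumour the 12 probes had an SD of 0.12 to 0.25, the median being 0.19.

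Tsc1, Tsc2 and Flcn, which act upstream of the kinase, did not pass. Tsc1, the hamartin gene, lies at chr2:28498119-28546640 with 7 probes and read -0.07, -0.04, 0.00 and -0.05 in the carcinomas. Its lymphomas ran from -0.14 to 0.07, with a median of -0.05, and the groups overlapped. For Tsc1 the fit gave -0.04, with a 95% interval from -0.16 to 0.09 (limma adjusted p = 0.708), and with median centring it was 0.02. At the Tsc1 probe starting at 28533073 the slide 2 lymphomas read 0.36 to 0.54 and the slide 3 lymphomas -0.24 to -0.19.

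Tsc2, the tuberin gene, lies at chr17:24739593-24759591 with 4 probes and read -0.07, -0.08, 0.01 and -0.02 in the carcinomas. The lymphomas ran from -0.06 to 0.25, with a median of 0.01, and the highest were WT1405 at 0.25 and KO1111 at 0.15. The fitted difference was -0.04, with a 95% interval from -0.20 to 0.11 (limma adjusted p = 0.74). The local values placed the same tumours on top, 0.30 in WT1405 and 0.24 in KO1111. The Tsc2 difference turned to 0.01 with median centring and to 0.02 without lymphoma KO1111, neither of which passed.

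Flcn, the folliculin gene, lies at chr11:59609718-59617089 with 2 probes and read -0.01, 0.02, -0.07 and -0.08 in the carcinomas. The lymphomas ran from -0.03 to 0.26, with a median of 0.07, and WT1405 was the highest. For Flcn the fit gave -0.11, with a 95% interval from -0.26 to 0.05 (limma adjusted p = 0.347). The probes disagreed in level: in WT1405 they read 0.12 and 0.39.

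Sdhb lies at chr4:140518388-140531946, between Arid1a and Mtor, and has only 2 probes. The wild-type carcinoma WT1179 read -0.84, and the knockouts KO1097, KO1080 and KO1134 read -0.62, -0.48 and -0.23. The lymphomas read from -0.39 to -0.01, with a median of -0.13, and all 8 were below 0. Lymphomas KO1077 at -0.39 and WT1113 at -0.35 were lower than carcinoma KO1134, so the groups overlapped. The fitted difference was -0.35 ± 0.11, with a 95% interval from -0.60 to -0.10 (limma adjusted p = 0.061), which did not pass. It passed in 5 of 25 alternatives: without carcinoma KO1134 (-0.44, adjusted p = 0.0118), without lymphoma KO1077 (-0.44, 0.0278), with normexp signals (-0.44, 0.0323), with tumour type as the only term (-0.38, 0.0177) and with slide as a random block (-0.35, 0.0441). Without carcinoma WT1179 it was -0.20 (limma adjusted p = 0.332), the highest p of the alternatives. The fit with slide as a random block has the limit given at Pbrm1.

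The 99 probes around Sdhb separated the tumour types where its own 2 did not. They gave -0.45, -0.62, -0.28 and -0.76 in the carcinomas and from -0.20 to -0.01 in the lymphomas, with no overlap, as did 11.1% of all genes. The fitted local difference was -0.45 ± 0.09 (limma adjusted p = 0.00528), and without carcinoma WT1179 it was -0.32 (adjusted p = 0.0562). Of 101 probes in and around Sdhb with values on all arrays, all had a lower mean in carcinomas, as did 102 of 104 at Arid1a, 94 of 97 at Mtor and 84 of 104 at Setd2, which did not pass. Over all autosomal probes the share was 76.6%, or 123432 of 161102, and off chromosome 4 it was 75.1%, or 113561 of 151150. Nearly all probes of chromosome 4 thus had a lower mean in carcinomas, and the counts at Arid1a, Sdhb and Mtor are not particular to these genes.

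Fh1 lies at chr1:177533233-177549478 with 2 probes and read 0.09, 0.01, 0.01 and 0.14 in the carcinomas. The lymphomas ran from -0.03 to 0.48, with a median of 0.14, and were highest in WT1114 at 0.48, WT1113 at 0.31 and WT1405 at 0.29. For Fh1 the fit gave -0.09, with a 95% interval from -0.29 to 0.11 (limma adjusted p = 0.576). The local values of these 3 lymphomas were 0.38, 0.21 and 0.25, and those of KO1111 and KO1414 were -0.13 and -0.15. Fh1 was the gene with the widest spread between lymphomas, SD 0.18 (n = 8), while its carcinomas had an SD of 0.07 (n = 4).

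**Figure D2:**
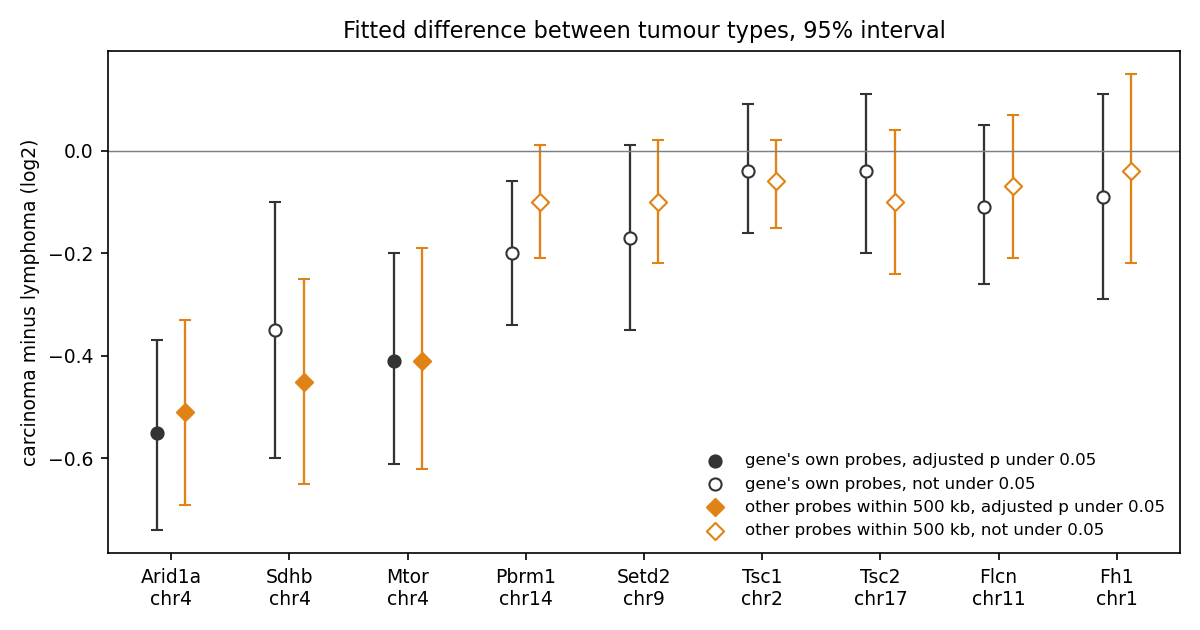
The vertical axis is the fitted carcinoma minus lymphoma difference in log2, with 95% intervals as bars, for the gene's own probes (circles) and the other probes within 500 kb (diamonds); filled symbols passed the limma test. Filled symbols stand at Arid1a and Mtor for both measures and at Sdhb for the local value, -0.45, and the other 6 genes have open symbols.

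The order of the carcinomas was the same at all 3 chromosome 4 genes, by own and by local values: WT1179 was lowest, then KO1097, KO1080 and KO1134. The median of the whole chromosome had that order too, at -0.75, -0.67, -0.44 and -0.30. In each carcinoma the median of the 3 genes was below that of the other 6, by 0.36, 0.59, 0.22 and 0.65 for KO1080, KO1097, KO1134 and WT1179. The mean of these differences was -0.45 ± 0.20 (SD, n = 4) in carcinomas and -0.10 ± 0.13 (SD, n = 8) in lymphomas. The carcinoma difference exceeded the lymphoma one by 0.36, and by 0.29 to 0.43 over 20 alternatives; no test was made of this value, since the members were chosen with results known. In lymphoma WT1113 the 3 genes were 0.36 below the other 6, as far as in carcinoma KO1080.

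None of the 3 genes was called apart from its surroundings or its chromosome. Arid1a minus the chromosome 4 median differed between tumour types by -0.02 (limma adjusted p = 0.77), Mtor by 0.13 (adjusted p = 0.115) and Sdhb by 0.19 (adjusted p = 0.114), where 6.05% of all genes passed. Mtor minus its neighbours differed by 0.00, with a 95% interval from -0.05 to 0.05 (limma adjusted p = 0.995). Sdhb minus its neighbours differed by 0.10 ± 0.04 (limma adjusted p = 0.122), and Sdhb was below its neighbours in 6 of 8 lymphomas. Of all genes 1227 were called apart from their chromosome, 3370 without lymphoma WT1121, 212 without lymphoma KO1077 and 139 with slide as a random block.

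**Figure D3:**
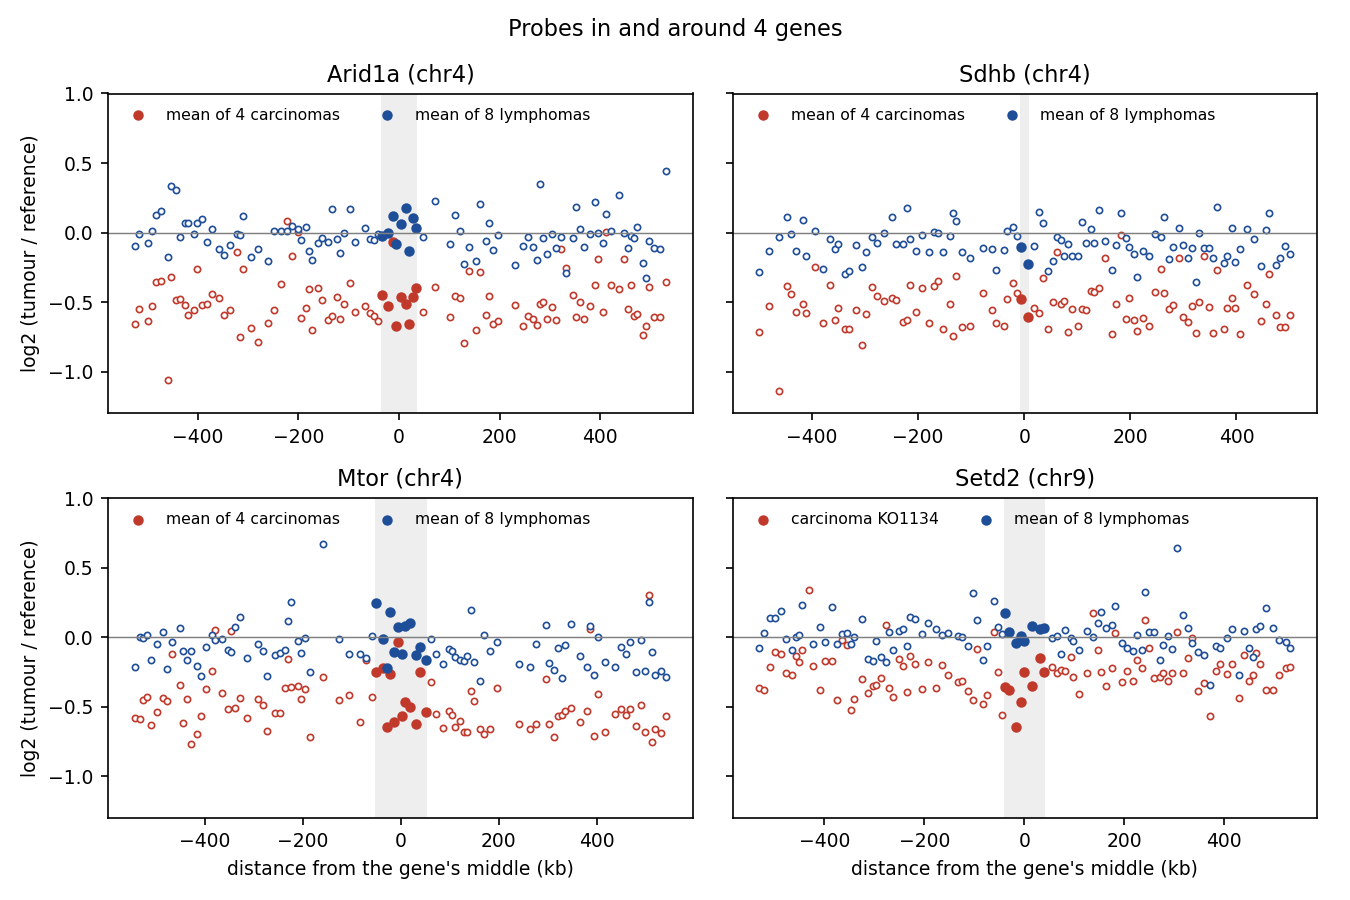
Each point is a probe, placed by its distance in kb from the gene's middle, with its log2 ratio on the vertical axis; filled points and the grey band are the gene's own probes, red is the mean of 4 carcinomas (carcinoma KO1134 alone for Setd2) and blue the mean of 8 lymphomas. Red points lie below blue ones at 102 of 104 probes at Arid1a, 101 of 101 at Sdhb and 94 of 97 at Mtor. The carcinoma mean was also the lower at nearly all other probes of chromosome 4. At Setd2 97 of 104 probes of KO1134 lie below 0, a count of another kind than those 3. The share of all KO1134 probes below 0 was not counted. The mode of that array lay 0.066 above its median, and 31.9% of its genes lay in lost segments.

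Segments, stretches of a chromosome with 1 level, were called lost or gained when they held 5 or more probes and their mean differed from 0 by 0.25 or more. Arid1a, Sdhb and Mtor shared 1 segment in each carcinoma, called lost in all 4 of them, so 12 of 12 combinations of gene and carcinoma were lost, against 18.7% of all gene and carcinoma combinations. Lost segments held 10.4%, 17.4%, 31.9% and 15.2% of all genes in KO1080, KO1097, KO1134 and WT1179. The segment of KO1080 was 33.4 Mb long, that of KO1097 27.1 Mb and those of KO1134 and WT1179 26.9 Mb, and each ran to the last probe of the chromosome, at 155629081. Their means were -0.44, -0.63, -0.27 and -0.74. The start of the KO1080 segment, 122218594, was also a segment start in the knockout lymphomas KO1077 and KO1414, where that segment was not called. Chromosome 4 was divided into 68 to 85 segments in the knockout carcinomas and into 6 in WT1179. In lymphomas it was divided into 32 to 63 segments in knockouts and 1 to 10 in wild types. Carcinomas KO1080, KO1097, KO1134 and WT1179 had 3, 3, 5 and 3 segments on chromosome 9, and 1, 4, 4 and 3 on chromosome 12. The knocked-out gene Mutyh itself lies on chromosome 4, and the part of its altered allele and flanks in these counts was not tested.

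Away from chromosome 4, 1 of 24 gene and carcinoma combinations was lost. That was Setd2 in KO1134, in a segment of 74.7 Mb with a mean of -0.29, in a tumour where 31.9% of all genes lay in lost segments. In the lymphomas, 1 of 72 combinations was lost and 3 were gained, against 0.187% and 5.47% of all genes. The lost one was Mtor in WT1113, in a 13.8 Mb segment of mean -0.29 that runs to the end of chromosome 4, where 0.981% of all genes in that tumour were lost. In the same tumour Sdhb lay in a neighbouring segment of -0.22, which was not called, and Arid1a in one of -0.02, so the segment means in WT1113 were lower towards the end of the chromosome.

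The gained combinations were Tsc2 and Flcn in WT1405, each at 0.27, and Fh1 in WT1114, at 0.38 over 71.4 Mb. Gained segments held 21.9% of all genes in WT1405 and 7.86% in WT1114. Just under the threshold were Tsc2 in KO1111 and Fh1 in WT1405, both at 0.246, and Fh1 in WT1113 at 0.234. Centring on the median in place of the mode, which moves KO1134 by 0.066 and WT1405 by -0.076, ended the calls of Arid1a, Sdhb, Mtor and Setd2 in KO1134 and of Tsc2 and Flcn in WT1405. It left 11 of the 17 calls at the 9 genes. With a threshold of 0.4, 9 calls were left, those of the chromosome 4 genes in KO1080, KO1097 and WT1179.

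**Figure D4:**
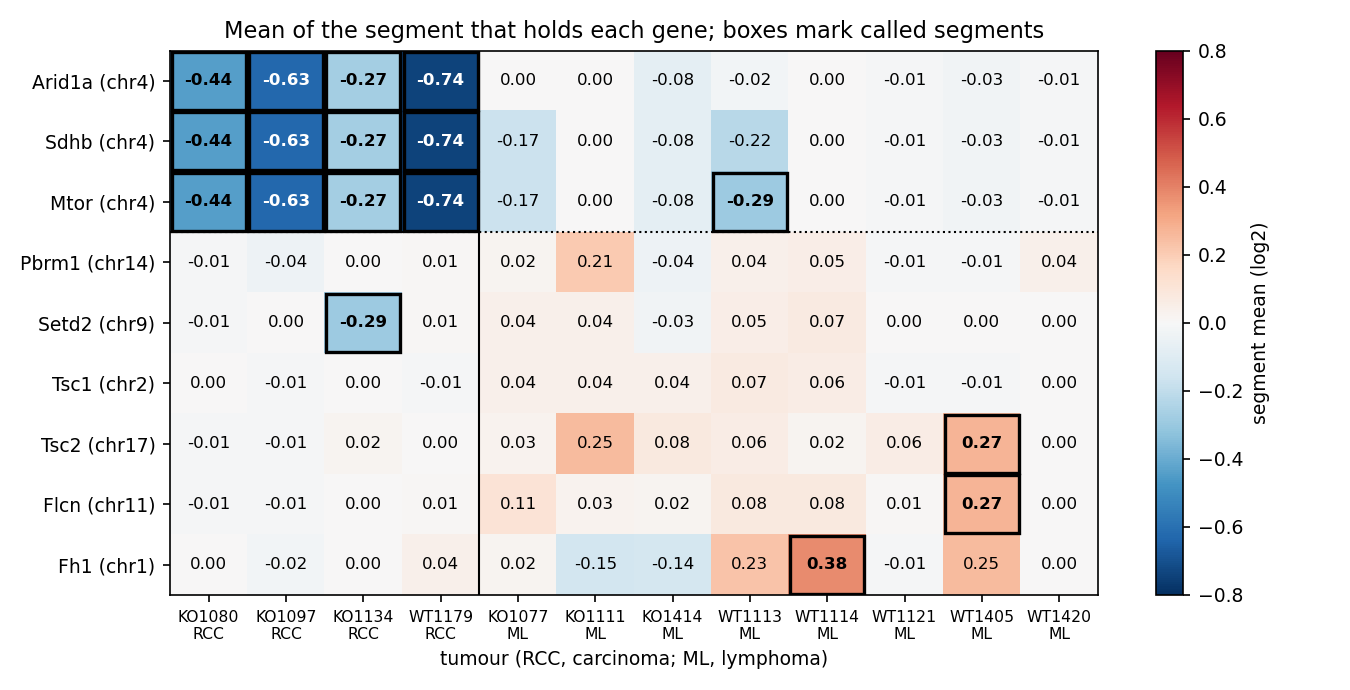
Each cell gives the mean log2 ratio of the segment that holds a gene (rows) in a tumour (columns), blue below and red above 0, and boxes mark the 17 called segments. The 12 boxes at the upper left are the chromosome 4 genes in the 4 carcinomas, at -0.27 to -0.74, and the box for Mtor in lymphoma WT1113 stands apart at -0.29.

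None of the 9 genes passed the test between knockout and wild-type tumours. The greatest genotype difference was at Fh1, -0.16 ± 0.08 (limma adjusted p = 0.847), and 0.0641% of all genes, 13 in number, passed. Within slides, where Fh1 could be set side by side, knockouts minus wild types gave -0.29 on slide 2 and -0.16 on slide 3 for lymphomas and -0.11 on slide 1 for carcinomas. Slide 2 set 2 knockouts against 2 wild types, slide 3 set 1 against 3 and slide 1 set 3 against 1. The median of chromosome 1, which holds Fh1, was 0.19, 0.26 and 0.24 in wild types WT1113, WT1114 and WT1405, and -0.06 to 0.06 in all other tumours. At Arid1a, Sdhb and Mtor the 1 wild-type carcinoma was below the mean of the 3 knockout carcinomas by 0.28, 0.39 and 0.26. Whether the genotype difference itself differed between tumour types was tested as an interaction in limma, added after the data were seen, and 3.67% of all genes passed. The 9 genes had adjusted p between 0.359 and 0.978, the lowest at Sdhb (0.44, unadjusted p = 0.0339). Its wild-type carcinoma arm is WT1179 alone, assumed to vary like the other groups, so a p that misses the threshold says little here.

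Treatment gave no call at any gene of the array by limma, with 2126 genes at an unadjusted p under 0.05. Among the 9, Pbrm1 had the greatest difference, 0.19 ± 0.07 higher in treated tumours (limma adjusted p = 0.374). Over 25 alternatives, slide as a fixed term among them, the Pbrm1 treatment difference was between 0.02 and 0.23 and did not pass (lowest limma adjusted p = 0.077). All 4 slide 2 lymphomas were treated and 3 of 4 slide 3 lymphomas were untreated, and within slide 3 the treated tumour exceeded the untreated mean at Pbrm1 by 0.03. Without that tumour, WT1121, the treatment term called 467 genes. Treatment and slide then divide the lymphomas in the same way, so these calls cannot be credited to either.

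Other genes of the same pathways were taken from 3 lists. Of 25 measured genes of SWI/SNF and histone H3 lysine 36 methylation, 4 were lower in carcinomas, 1 was higher and 20 did not pass, beside 12.7% lower and 0.873% higher over all genes. The median difference was -0.16, beside -0.09 over all genes. Dpf3, a histone reader of the BAF complex, fell by 0.50 on the log2 scale (adjusted p = 0.00047), and lies at chr12:84424242-84818027. Smarcc1, a core subunit that lies close to Setd2 on chromosome 9, differed by -0.22 (adjusted p = 0.0187), with a value of -0.21 in KO1134. It averaged -0.07 in carcinomas and 0.15 in lymphomas, and its neighbours differed by -0.12 (limma adjusted p = 0.298). Bcl7b, a small accessory subunit, fell by 0.73 (adjusted p = 0.000253), but its neighbours differed by 0.14 in the other direction (adjusted p = 0.321). Phf10, a PBAF subunit, differed by -0.31 (adjusted p = 0.0204), with carcinomas at 0.00 and lymphomas at 0.24 on average, and its neighbours by -0.04 (adjusted p = 0.641). Its probe at chr17:15086964-15087023 averaged 0.64 in slide 2 lymphomas and 0.12 in slide 3 lymphomas. Actl6b, an actin-like subunit read by 1 probe, differed by 0.28 (adjusted p = 0.0342), with carcinomas at -0.06 and lymphomas at -0.26.

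Of 25 measured mTOR pathway genes, 3 were lower in carcinomas and 22 did not pass, beside 12.7% lower over all genes, and the median difference was -0.10. The 3 were Rragd (-0.63, adjusted p = 0.000298), Prkaa2 (-0.61, adjusted p = 0.000336) and Rragc (-0.39, adjusted p = 0.00254), 2 of the RAG GTPases that recruit the kinase and a catalytic subunit of AMPK. All 3 lie on chromosome 4, as do Rraga (-0.38, adjusted p = 0.127) and Sesn2 (-0.15, adjusted p = 0.325), which have 1 probe each and did not pass; these were named because they share the chromosome. The local differences of Rraga and Sesn2 were -0.54 and -0.58 and passed (limma adjusted p = 0.000358 and 0.000378).

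Of 16 measured Krebs cycle genes, 2 were lower and 14 did not pass, beside the same 12.7%, and the median difference was -0.10. Both lie on chromosome 12: Dlst (-0.59, adjusted p = 0.000264) and Dld (-0.48, adjusted p = 0.00278), subunits of the 2-oxoglutarate dehydrogenase complex. The median of chromosome 12 was -0.42, -0.65, -0.24 and -0.74 for KO1080, KO1097, KO1134 and WT1179, near those of chromosome 4 in each tumour. Succinate dehydrogenase subunits Sdha, Sdhc and Sdhd, on other chromosomes than Sdhb, had differences of -0.13, -0.06 and -0.11 and did not pass. They were named as the partners of Sdhb, with their values already seen. In carcinoma KO1097 Sdha read -0.66, while the other 3 carcinomas read -0.03 to 0.10.

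The gene on another chromosome with the most similar values over the 12 tumours was on chromosome 12 for all 3 chromosome 4 genes. These were Tmem63c for Arid1a (Pearson r = 0.988), Meg3 for Sdhb (r = 0.942) and Dicer1 for Mtor (r = 0.935), each the highest among 8452 genes with at least 3 probes. For the others they were Clec16a for Pbrm1 (r = 0.961), Elf1 for Setd2 (r = 0.971), Sec11a for Tsc1 (r = 0.906) and Slco1a1 for Tsc2 (r = 0.926). Flcn and Fh1 were most like transcripts listed without a gene symbol, at r = 0.941 and 0.887. These are descriptions over 12 arrays that share the reference, the slides and the tumour types.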

How the data were processed

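Genomic DNA of 12 tumours was read on 12 Agilent mouse arrays, 1 per tumour. Intensity was deposited, per the file headers, as red and green processed signals from Feature Extraction 10.7.1.1, background-subtracted and dye-normalized, on build mm9; the deposited log10 ratio column was an alternative. The series-wide table matched the uncentred log2 ratio of the deposited scanner values (lowest correlation 0.99994, column medians between -0.02 and 0.025) and was another. Each array gave 170305 probes, 161460 of them autosomal, with 99.856% to 99.938% of spots well above background; their number limits the precision.

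Spots marked as outliers were left out, spots of a probe were averaged, and arrays were centred on the mode of their autosomal probes (Gaussian kernel, bandwidth 0.05). Gene, local (500 kb) and difference values were fitted with limma 3.58.1 in R 4.3.3, in an additive model of tumour type, genotype and treatment. Segments came from penalised least squares with a penalty of 10 times log n times the noise variance. Both were tested on simulated data, in which limma missed many changes of the size seen at Sdhb and made somewhat more false calls than the level set. Far fewer genes were changed there than were called here, and they were drawn independently of each other. The simulation therefore does not give the power of the test at Sdhb in these data. The outcome for segments is not given here. The 9 genes, the 3 lists and the rules were chosen with earlier results of these data known. Beside the 9 genes, the text names up to 5 genes of each list with the greatest difference past the threshold, the gene most like each member, and Mutyh. Igh, Tcra/Tcrd, Rraga, Sesn2, Sdha, Sdhc and Sdhd fall outside this rule. Of the 75 listed genes, 9 had no match on the array, and 2 matched by an older name.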

Additional observations from a re-analysis of the deposited data

Results flagged for a closer look

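In 36 sets of 4 or 8 tumours, the values of the 9 genes were searched for a highest or lowest tumour that stood far from its nearest neighbour relative to the whole range, and 2 were found, about as many as chance gives at this rate of about 1 set in 20. The local value at Tsc1 in the carcinomas was highest in KO1134, at 0.03, with the nearest carcinoma at -0.01. The local value at Flcn in the lymphomas was highest in WT1405, at 0.29, with the nearest lymphoma at 0.10, in the tumour whose Flcn segment was called gained. No cause was tested for either.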

How the results depend on the processing

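Arid1a kept its call and direction in all 26 alternatives on gene values and all 28 on local values; Sdhb, Mtor and Pbrm1 did not in those named with their results, where the cause was not tested. The chromosome 4 contrast stayed between -0.43 and -0.29. Of all genes, 1091 were called by tumour type with at least 3 probes a gene (2132 to 3295 without 1 tumour), 961 by local value (1636 to 2232), and 7 by genotype (11 to 13), where fewer genes were tested. Treatment called 1 gene with slide as a fixed term and 0 to 467 without 1 tumour. The 467 were without WT1121, where treatment and slide cannot be told apart among lymphomas. Gene minus local called 1508 with normexp signals, 1206 with at least 3 probes, 1205 with tumour type alone, 139 with slide as a random block and 1013 to 5517 without 1 tumour. Gene minus chromosome called 599, 239, 489, 139 and 212 to 3370 in the same order, 610 in treated tumours alone and 703 with WT1113 and WT1114 averaged, an alternative chosen after seeing the data. Segment calls at the 9 genes numbered 17, with 9 at a threshold of 0.4, 11 with median centring and 25 at 0.15, where Sdhb and Mtor were lost in lymphomas KO1077 and WT1113. No paired analysis was possible because each tumour came from its own animal and the groups share no replicate number. Signal lay well above background on every array, so the number of tumours, 1 wild-type carcinoma among them, and genes with 2 probes limit these comparisons.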

Other observations

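Bcl7b, the listed SWI/SNF gene with the greatest difference, was read by 2 probes that disagreed. The probe at chr5:135644875-135644934 read -1.49, -1.65, -2.13 and -1.59 in the carcinomas and from -0.18 to 0.32 in the lymphomas. The probe at chr5:135657622-135657681 read -0.11, 0.09, 0.03 and 0.47 in the carcinomas and -0.08 on average in the lymphomas. The carcinomas were thus below every lymphoma at the first and overlapped them at the second.

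Of the 57 probes of the 9 genes, slide 2 lymphomas were all above slide 3 lymphomas at 16 and all below at 2, beside 9.92% and 7.34% of all autosomal probes. Of the 16, 7 were in Pbrm1, 4 each in Arid1a and Setd2 and 1 in Tsc1. Treatment divides these lymphomas almost as the slides do, and the part of either in these probe counts was not tested.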
